A study of Mus musculus with 10 samples.

Results

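The miR-221 and miR-222 pair comprises 2 neighbouring hairpins on the mouse X chromosome, each of which gives a miRNA from its 3′ arm and one from its 5′ arm. The 4 members, mmu-miR-221-3p, mmu-miR-222-3p, mmu-miR-221-5p and mmu-miR-222-5p, were selected by name among 1061 mature miRNAs of a normalised count table, and all 4 were found. The pair was chosen on readouts of these same libraries, and which of its values led to the choice is not recorded. Its levels, its differences between mice and its differences between eyes are therefore given as a description, and the adjusted p values beside them only place the members among all miRNAs tested. Small RNA had been sequenced from both retinas of 5 wild type C57BL/6J mice, numbered 61, 64, 65, 66 and 68, at postnatal day 34. One eye of each mouse had carried a goggle with a -20 D lens for 10 days from postnatal day 24, a treatment that defocuses the image and induces myopia, and the fellow eye had none. All 5 mice shared the anaesthesia with ketamine and xylazine under which goggles were attached. The labels say whether a retina is left or right and leave out which eye wore the lens. The 5 right retinas were therefore set against the 5 left ones of the same mice, and no side stands for the treatment.

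A miRNA guides a silencing complex to messenger RNAs, mainly by pairing of its seed, bases 2 to 8, and usually one arm of a hairpin is retained while the other is degraded. miR-221 and miR-222 are transcribed together and act mostly through their 3p arms, which share a seed. In human cells they are known to repress the cyclin-dependent kinase inhibitor p27 (CDKN1B) and the receptor KIT, and they have been studied above all in proliferating tumour cells, endothelium and vascular smooth muscle. In whole retina those cell types are a minority beside photoreceptors and other neurons.

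The mature sequences are shown because both 3p arms carry the same seed, which is in capitals, whereas the 5p arm of miR-221 carries another. They are RefSeq's, in build GRCm38.p6, written 5′ to 3′.
mmu-miR-221-3p: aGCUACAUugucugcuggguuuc
mmu-miR-222-3p: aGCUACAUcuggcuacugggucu
mmu-miR-221-5p: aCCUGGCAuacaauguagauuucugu

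The first 8 bases of both 3p arms are identical, and over the 23 positions 11 (47.8%) are the same without gaps. Counted from 1 at the 5′ end, with the base of miR-221-3p first, the earliest difference is U9C. Behind it both sequences share the run CUGGGU, which starts at base 15 of miR-221-3p and at base 16 of miR-222-3p. RefSeq's miR-1928, not analysed here, has the same seed. The GC content is 47.8% for miR-221-3p, 52.2% for miR-222-3p and 38.5% for miR-221-5p, against a median of 47.8% over the tested miRNAs with a sequence.

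The hairpins are shown to place the arms, with the mature sequences above in capitals.
Mir222: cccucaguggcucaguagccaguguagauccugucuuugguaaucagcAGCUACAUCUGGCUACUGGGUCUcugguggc
Mir221: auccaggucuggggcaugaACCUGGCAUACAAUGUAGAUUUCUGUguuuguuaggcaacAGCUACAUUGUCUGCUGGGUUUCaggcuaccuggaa

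Both lie on the minus strand of chromosome X in GRCm38, Mir222 from 19146893 to 19146971 and Mir221 from 19146294 to 19146388, with 504 bases between them, so that Mir222 comes first in the direction of transcription. In the GENCODE annotation no gene other than the hairpins themselves overlaps this span, and the members are thus neither exonic nor intronic in another gene. The nearest gene upstream is Gm14636, a processed transcript on the same strand, at a distance of 10009 bases (19156981 to 19167241). The arms lie from 19146307 to 19146329 (miR-221-3p), from 19146344 to 19146369 (miR-221-5p), from 19146901 to 19146923 (miR-222-3p) and from 19146941 to 19146961 (miR-222-5p). A predicted fold of the hairpins had a free energy of -42.8 kcal/mol for Mir221 and -40.7 kcal/mol for Mir222, with 21 and 19 of the 23 bases of the 3p arm paired.

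The values are normalised read counts in which every library has nearly the same total, from 17312269 to 17312436, and in which a value reflects where a miRNA ranks within the library. The sequencing depth is unknown, and no counting interval can be given. Each library had from 822 to 899 miRNAs with a value over 0. The libraries carried the miRNAs of retina. The photoreceptor miRNAs miR-182-5p, miR-183-5p and miR-96-5p summed to between 10550800 and 10579100 normalised reads, and miR-124-3p of neurons was between 76000 and 88655. miR-182-5p and miR-183-5p each had the same value in every library, which their rank sets, and only miR-96-5p varied (20982.5 to 49232.7). The narrow range of the photoreceptor sum therefore cannot show whether the retinas held equal photoreceptor content. Summed markers of other tissue stood out in 2 libraries. The skeletal muscle list summed to 1742 in the left retina of mouse 68 and to between 279 and 400 elsewhere. The lens and cornea list summed to 22622 in the right retina of mouse 65 and to between 1217 and 2338 elsewhere. Nearly all of that 22622 was miR-184-3p, at 22384. Over all libraries miR-205-5p reached no more than 49.4, and miR-203-3p lay between 194 and 228. The labels used here give no batch, date or sex.

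miR-222-3p was the most abundant member. In left retina it was at 317 normalised reads in mouse 61, 463 in mouse 64, 560 in mouse 65, 552 in mouse 66 and 263 in mouse 68. In right retina the same mice had 359, 599, 535, 524 and 300.0 normalised reads. Both retinas of mice 61 and 68 were below every retina of the other 3 mice, while left and right retinas overlapped. miR-222-3p ranked between 139 and 186 of 1061 in its libraries, and its mean of 447 gave it rank 10 among 79 X-linked miRNAs by level.

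miR-221-3p, which carries the same seed, was at a lower level and was likewise lowest in mice 61 and 68. Its left values were 134 normalised reads in mouse 61, 153 in mouse 64, 214 in mouse 65, 188 in mouse 66 and 128 in mouse 68. Its right values were 132, 189, 188, 164 and 124 in these mice. The 4 retinas of mice 61 and 68 again held the lowest values, and the ranges of left and right retinas overlapped. Its rank lay between 200 and 244.

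The 5p arms, the strands that are usually degraded, were scarce. miR-221-5p was at 24.8, 29.3, 19.1, 18.1 and 25.2 normalised reads in the left retinas of mice 61, 64, 65, 66 and 68, and at 29.6, 29.3, 16.7, 9.90 and 17.7 in the right ones. Here the values of mouse 61 were among the highest and those of mice 65 and 66 were low, an order unlike that of the 3p arms. miR-222-5p was at 5.77, 8.85, 5.10, 3.30 and 3.80 in left and at 4.20, 12.8, 5.68, 8.95 and 3.70 in right retina. Its mean of 6.21 was under the minimum mean of 10 set for testing, so 3 of the 4 members were tested, and normalised values this low are the least precise in the table.

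**Figure D1:**
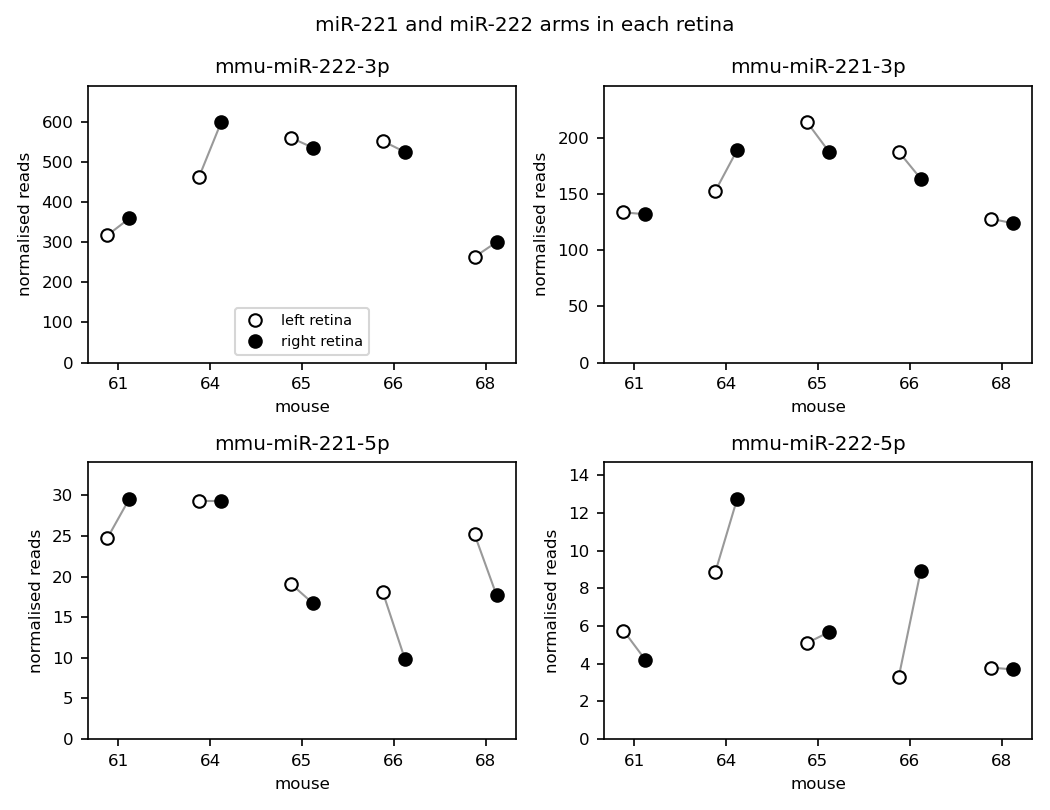
Normalised reads (linear axes from 0) of the 4 arms in each retina, by mouse, with open circles for left and filled circles for right retina and a line joining the eyes of a mouse. Both 3p arms were lowest in mice 61 and 68, whereas miR-221-5p was high in mouse 61.

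From high to low, the order was miR-222-3p, miR-221-3p, miR-221-5p and miR-222-5p in 10 of 10 libraries. The ranges over libraries did not overlap between miR-222-3p (263 to 599) and miR-221-3p (124 to 214), nor between miR-221-3p and miR-221-5p (9.90 to 29.6), but miR-221-5p and miR-222-5p (3.30 to 12.8) overlapped. These are levels in normalised reads, which are set by rank within a library and are not counts of molecules. The ligation of adapters can also favour some sequences, so ratios between miRNAs are not molar. Together the 3p arms took between 0.00226% and 0.00455% of the normalised total.

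The strand balance differed between the hairpins. The 3p arm made up 88.0% of both arms for miR-221 and 98.6% for miR-222, by their means over 10 libraries. Among 244 hairpins with both arms listed and a summed mean of at least 10, the 3p arm was the larger in 116 (47.5%), and the median share of whichever arm was larger was 96.8%. miR-222 was thus above and miR-221 below that median. By library, the ratio of the 3p to the 5p arm of miR-221 was lowest at 4.46, in the right retina of mouse 61, and highest at 16.5, in the right retina of mouse 66. In mice 65 and 66 the 5p arm took between 5.70% and 8.79% of miR-221, and in mice 61, 64 and 68 between 12.5% and 18.3%. For miR-222 the 5p share lay between 0.595% and 2.09%.

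**Figure D2:**
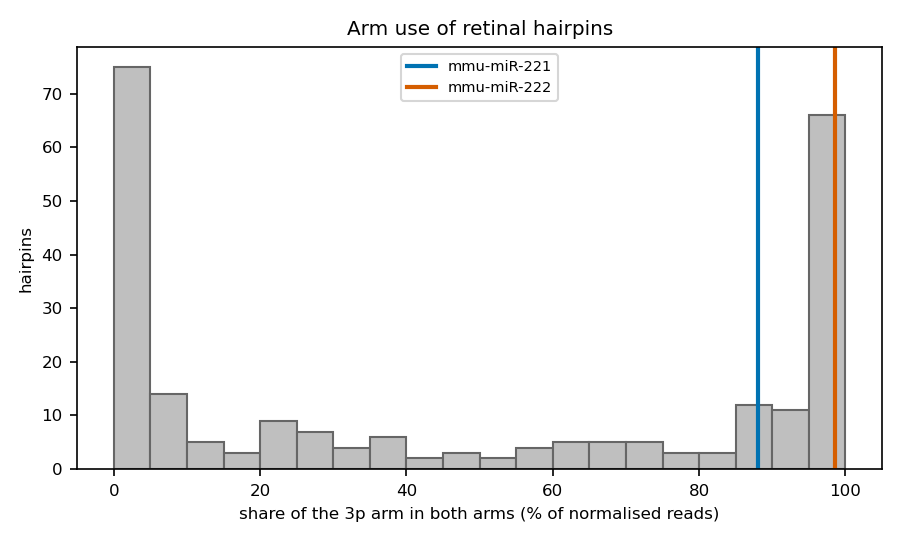
Histogram of the share of the 3p arm in the summed mean level of both arms (percent of normalised reads) over 244 hairpins, with vertical lines at miR-221 (88.0%) and miR-222 (98.6%). Most hairpins sit at either end of the axis, and miR-222 lies in the last bar.

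The comparison of right with left retina addressed only whether the sides differed in the same direction over the mice. No member passed the test. miR-222-3p had a mean of 431 ± 135 normalised reads over left and 464 ± 127 over right retinas (SD, n = 5). The log2 fold change, right minus left on the log2(value + 1) scale, was 0.12 (SE 0.10, 95% interval -0.11 to 0.35), or 1.09-fold, with a higher right value in 3 of 5 mice. Without mouse 65 or mouse 68, each with a library where a list of other tissue had a high sum, it was 0.17 and 0.10. Without mouse 64 it was 0.06. miR-221-3p had a mean of 163 ± 36.8 over left and 159 ± 30.5 over right retinas (SD, n = 5), with a log2 fold change of -0.03 (SE 0.10, 95% interval -0.27 to 0.21) and a higher right value in 1 of 5 mice. The sign of the latter turned to 0.01 both without mouse 65 and without mouse 66.

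miR-221-5p had a mean of 23.3 ± 4.65 over left and 20.6 ± 8.58 over right retinas (SD, n = 5). The log2 fold change came to -0.25 (SE 0.20, 95% interval -0.72 to 0.23), which was -0.11 without mouse 66. The value was equal in both eyes of mouse 64, higher on the right in 1 mouse and lower in 3. miR-222-5p was at 5.36 ± 2.18 and 7.06 ± 3.79 (SD, n = 5), and its differences ran from -0.38 in mouse 61 to 1.21 in mouse 66 on the log2 scale. Tested with a minimum mean of 1, it had a log2 fold change of 0.28 (SE 0.29) and an adjusted p by limma of 0.982. With limma's moderated test over 484 miRNAs, the adjusted p was 0.958 for miR-222-3p, 0.994 for miR-221-3p and 0.958 for miR-221-5p. Of all 484, 0 (0%) passed an adjusted p of 0.05 and 12 (2.48%) were at an unadjusted p under 0.05, none of them a member. A lens effect that lay on different sides in different mice would cancel in this contrast. The mean size of the difference between eyes, without its sign, was 0.18 for miR-222-3p and 0.15 for miR-221-3p on the log2 scale.

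**Figure D3:**
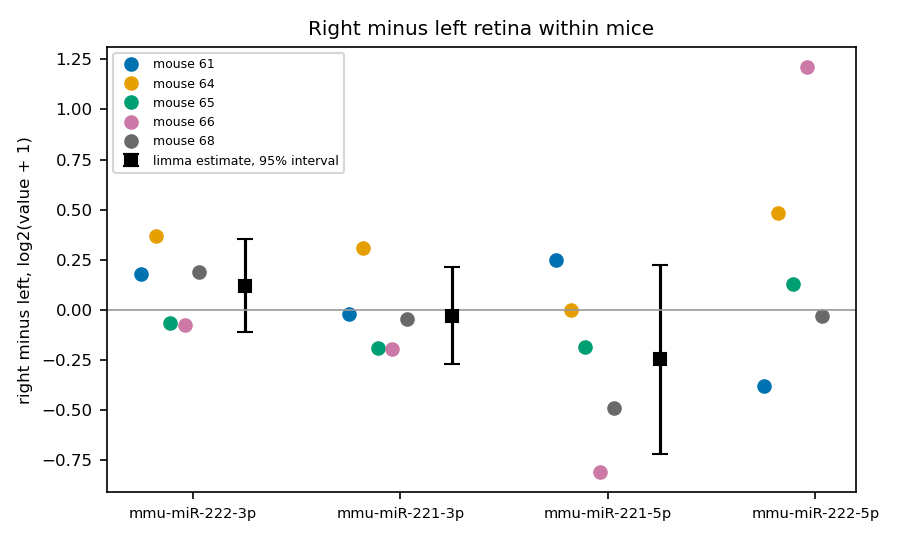
Right minus left difference of log2(value + 1) for each member, with a coloured point per mouse and, for the 3 tested members, the limma estimate with its 95% interval as a black square and bar. All 3 intervals include 0, and the points of the 5p arms are the most spread, up to 1.21 for miR-222-5p in mouse 66.

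The balance between the 3p arms had one direction in every mouse. The ratio of miR-222-3p to miR-221-3p was 2.37 in left and 2.72 in right retina of mouse 61, 3.03 and 3.16 in mouse 64, 2.61 and 2.85 in mouse 65, 2.94 and 3.20 in mouse 66, and 2.05 and 2.41 in mouse 68. The right retina had the higher ratio in 5 of 5 mice, although the ranges of the sides overlapped. The mean difference of the log2 ratio was 0.15 ± 0.07 (SD, n = 5 mice), from 1.36 in left to 1.51 in right retina. The exact sign-flip permutation test gave a two-sided p of 0.063, the smallest that 5 mice allow, and 0.188 after Benjamini-Hochberg adjustment over the 3 ratios tested. A ratio within a library does not depend on its scaling, but each value here had been set by the rank of the miRNA. The log2 ratio of the 3p to the 5p arm, right minus left, was 0.22 ± 0.35 for miR-221 (exact sign-flip p = 0.25, adjusted 0.375) and -0.16 ± 0.69 for miR-222 (SD, n = 5 mice; exact p = 0.75, adjusted 0.75). These latter differences were within the spread between mice.

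Between mice the 3p arms varied more than between the eyes of a mouse. For miR-222-3p the mean of both eyes was 281 normalised reads in mouse 68, 338 in mouse 61, 531 in mouse 64, 538 in mouse 66 and 547 in mouse 65, a range of 1.94-fold. The SD of the mouse means was 0.45 on the log2 scale, against 0.13 for a single eye within a mouse. For miR-221-3p the means of both eyes were 126 in mouse 68, 133 in mouse 61, 171 in mouse 64, 176 in mouse 66 and 201 in mouse 65, a range of 1.59-fold, with SDs of 0.28 and 0.15. miR-221-5p had SDs of 0.43 and 0.29, and miR-222-5p of 0.48 and 0.43. In bulk retina, fewer cells of a type and less of the RNA per cell cannot be told apart.

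In limma's moderated F test of the mouse terms, 8 of 484 miRNAs (1.65%) passed an adjusted p of 0.05 and 68 (14%) were at an unadjusted p under 0.05. No member passed after adjustment, with 0.0624 for miR-222-3p, 0.236 for miR-221-3p and 0.359 for miR-221-5p, while both 3p arms were among the 68. By p value miR-222-3p held rank 11 and miR-221-3p rank 45 of 484. miR-222-3p did pass when only miRNAs with a mean of at least 100 were tested (adjusted p = 0.0319), with each library divided by the median ratio of its values to the miRNA means (0.0398) and with the GC trend of each library removed (0.0280, an alternative chosen after the data were seen). Leaving out a mouse moved its adjusted p to between 0.0727, without mouse 65, and 0.324, without mouse 68.

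**Figure D4:**
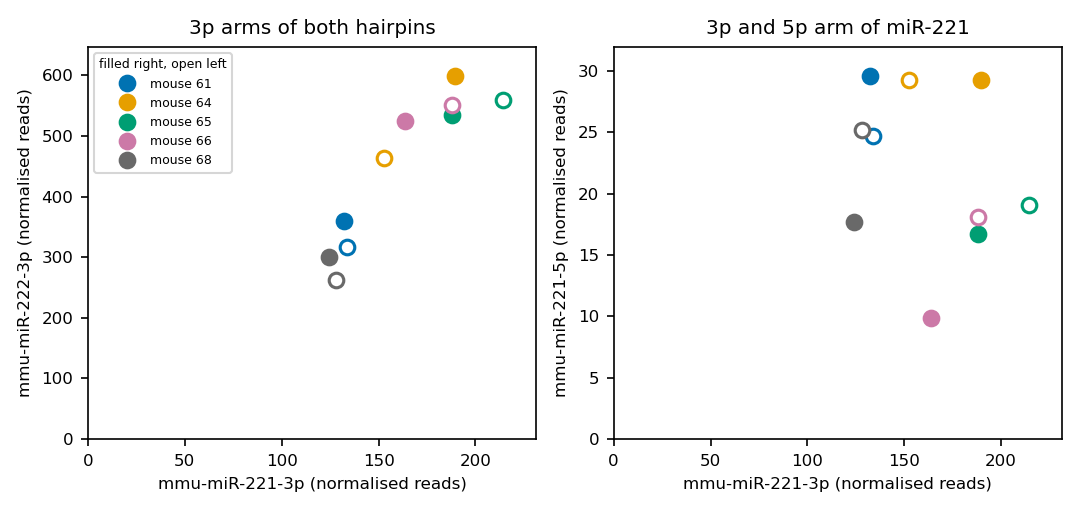
Normalised reads of miR-222-3p (left panel) and miR-221-5p (right panel) against miR-221-3p in 10 libraries, coloured by mouse, open for left and filled for right retina. The 3p arms are high and low in the same libraries, with mice 61 and 68 at the lower left, and the arms of miR-221 are not.

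The 3p arms followed each other across libraries. Pearson's r of their log2 values was 0.92 and Spearman's rho 0.96 over 10 libraries, which are pairs from 5 mice and share the normalisation. Without the left library of mouse 65 and the right library of mouse 68, the farthest from the median of miR-221-3p, r was 0.94. Both mice kept their other library, so the difference between mice stayed in and this removal could hardly lower r. Among 478 other miRNAs with varying values, miR-222-3p was the one most like miR-221-3p, but only narrowly. Its r was 0.9248, against 0.9247 for miR-431-3p. With the GC trend of each library removed, miR-431-3p was the closer, with 0.94 against 0.92. In likeness to miR-222-3p, miR-221-3p held rank 6. The arms of miR-221 did not follow each other (r = -0.26). For comparison, the median r with miR-222-3p was -0.06, 19 of 478 miRNAs were at 0.8 or above, and 9 were at -0.8 or below.

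The miRNAs most like miR-222-3p were miR-1964-3p (r = 0.95), the X-linked miR-322-3p (0.95), miR-128-3p, which is enriched in neurons (0.94), miR-296-3p of chromosome 2 (0.93) and miR-329-5p of the imprinted cluster on chromosome 12 (0.93). After miR-222-3p, those most like miR-221-3p were miR-431-3p, also of the chromosome 12 cluster (0.92), miR-1964-3p (0.91), miR-92a-3p of the miR-17-92 and miR-106a-363 clusters (0.91) and miR-128-3p (0.91). miR-128-3p was between 1535 and 2117 normalised reads in the 4 retinas of mice 61 and 68 and between 4352 and 4871 in the other 6. miR-1964-3p was between 8.47 and 12.8 in the former and between 54.99 and 79.3 in the latter. Of these companions, miR-1964-3p, miR-322-3p, miR-128-3p, miR-296-3p and miR-329-5p were among the 8 of 484 (1.65%) that passed the test between mice. They were picked in the same libraries for likeness to arms that varied between mice, so this follows largely from the choice.

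The least like miR-222-3p were miR-26b-5p (r = -0.95) and miR-301a-3p (-0.89), and the least like miR-221-3p were miR-26b-5p (-0.90) and miR-140-5p (-0.87). miR-26b-5p, a member of the miR-26 family, was at 81300 normalised reads in the left and 76000 in the right retina of both mice 61 and 68, and at 51974 to 57479 in the other mice. The 3p arms also followed the first principal component of the 484 miRNAs, the tested members among them. This component held 23.1% of the variance, little more than the second with 20.9%. Its sign was set by miR-222-3p, so the positive r with that arm was fixed in advance. It scored the libraries of mice 61 and 68 from -5.67 to -2.54, those of mouse 64 from -0.40 to 0.82 and those of mice 65 and 66 from 2.55 to 7.41. Its r with miR-221-3p was 0.92 and with miR-222-3p 0.88 over 10 libraries.

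**Figure D5:**
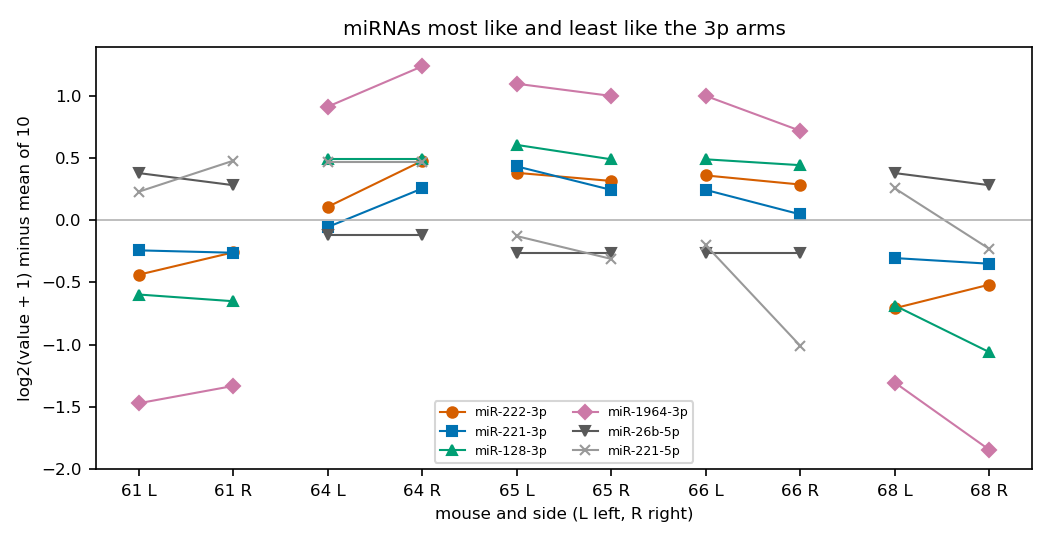
log2(value + 1) minus its mean over 10 libraries for both 3p arms, miR-221-5p and 3 miRNAs chosen for likeness or unlikeness, by mouse and side, with a line joining the eyes of a mouse. miR-128-3p and miR-1964-3p are low in mice 61 and 68 with the 3p arms, and miR-26b-5p is high there.

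Values that could move with the mice were read beside this pattern. The trend of the log2 values with GC content ranged from -0.15 per 10 points in the left library of mouse 61 to 0.12 in the left library of mouse 65, and its r with miR-222-3p was 0.45 over 10 libraries. With that trend removed, the r between the 3p arms was 0.92. The GC contents of these arms, 47.8% and 52.2%, are near the median of 47.8%, so the removal could hardly change this r. The pigment epithelium list, miR-204-5p and miR-211-5p, separated the mice in the opposite direction to the 3p arms, with sums between 217934 and 224482 normalised reads in the 4 retinas of mice 61 and 68 and between 209809 and 216448 in the other 6. miR-204-5p was at 203500 in every library, so the difference of the sums lay in miR-211-5p, whose adjusted p between mice was 0.152 by limma. The value of miR-204-5p is set by its rank, so a change that left this rank the same could not be seen. The 2 endothelial arms of miR-126a were above 0 in every library. They summed to between 8291 and 9110 in mice 61 and 68 and to between 7427 and 7952 in mice 65 and 66. In mouse 64 they summed to 8828 in the left and 7473 in the right retina, so these ranges overlapped. By limma, the adjusted p between mice was 0.742 for miR-126a-3p and 0.383 for miR-126a-5p. The pericyte and smooth muscle list, miR-143-3p and miR-145a-5p, summed to 14496 and 15418 in mouse 68, to 17099 and 17133 in mouse 61, and to between 17131 and 21089 in the other mice. That sum was nearly all miR-143-3p, with a mean of 17474 against 89.6 for miR-145a-5p. In the neuronal list, 1 of 3 members, miR-128-3p, passed the test between mice. The list summed to between 123993 and 139878 in mice 61 and 68 and between 135029 and 157020 in the others, so the ranges overlapped. Most of the sum came from miR-124-3p and miR-9-5p, whose adjusted p between mice was 0.698 and 0.210 by limma. The 5 erythrocyte markers summed to between 5276 and 8112 in mice 61 and 68 and between 4980 and 6891 in the others. Nearly all of that was miR-486a-5p and miR-486b-5p, with means of 3014 and 3096, against 48.6 or less for each of the rest. The 5 leukocyte markers, of which the myeloid miR-223-3p was at 0 in 1 library, summed to between 1775 and 2345 and between 1589 and 2047. Most of that was miR-150-5p, with a mean of 1825. The part of any of these in the levels of the 3p arms was not tested.

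miRNAs of related function or position were read against all miRNAs tested. Of the 18 listed miRNAs of angiogenesis and endothelium, all tested, 5 were higher and 12 lower in the right retina by their log2 fold change, with a median of -0.03, against 224 higher, 253 lower and a median of -0.01 over all 484. None passed in either test, and 4 of the 18 were at an unadjusted p under 0.05 between mice, against 68 of all 484. Its most abundant members were miR-27b-3p, between 60998 and 63868 normalised reads, and miR-92a-3p, between 28832 and 41158, whose adjusted p between mice was 0.0546 by limma. Of the 7 listed miRNAs known to repress inhibitors of cyclin-dependent kinases, as miR-221-3p and miR-222-3p do, 6 were tested, 2 above and 4 below 0 with a median of -0.03, and none passed in either test. miR-25-3p was between 9982 and 12364 and miR-93-5p between 637 and 821 normalised reads, with log2 fold changes of -0.03 and 0.02. Of the 79 X-linked miRNAs, 37 were tested, the 3 tested members included, with 16 above and 21 below 0 and a median of -0.03. Between mice 1 of these passed, miR-322-3p (adjusted p by limma 0.00390), against 8 of all 484 (1.65%). miR-322-3p was between 44.2 and 59.5 normalised reads in mice 61 and 68 and between 120 and 181 in the others. The most abundant X-linked miRNAs, miR-532-5p and miR-421-3p, had means of 1344 and 1166.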

How the data were processed

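Per the submitters' processing notes, Partek and Bowtie were used with the builds GRCm38 and mm10; the sources used here give no versions, trimming or assignment of reads. Per the labels, small RNA libraries were made with a TruSeq kit from column-purified small RNA. The deposited values were a signal, normalised read counts of 1061 mature miRNAs in 10 libraries, equal across libraries at 342 ranks as quantile normalisation gives, so depth is unknown. The table held 0 columns of other samples.

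miRNAs with a mean of at least 10 were fitted as log2(value + 1) with limma 3.58.1 in R 4.3.3 on side and mouse, with a trended empirical Bayes step, and two-sided p values were adjusted by Benjamini-Hochberg over all 484. The fit was tested on simulated data. Mouse was a term because both retinas of a number came from 1 animal: deviations from the side means correlated across miRNAs by between 0.0893 and 0.382 within mice. For ratios the signs of the 5 within-mouse differences were permuted exactly.

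GC content came from RefSeq sequences, which 424 (87.6%) of the tested miRNAs had. Table ends were reduced by 1 base, which gave RefSeq's positions for the 3 members with an entry. Members, lists and tests were chosen with earlier results of these data known. The miRNAs named are the members, the 5 most and 2 least correlated with each 3p arm, sharers of a seed, and from each list the 2 most abundant and any that passed. Other miRNAs in the text are tissue markers or correlates of miR-221-5p, the latter found by a search made after its values were seen.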

Additional observations from a re-analysis of the deposited data

How the results depend on the processing

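The values follow from ranks, so depth and absolute change are not visible, and 5 mice limit what can pass: a 95% interval reached 0.34 (log2) to either side of the estimate in the median miRNA. Right minus left, 0 miRNAs passed under all 14 alternatives, including the fit with no replicate block, where the paired and unpaired estimates of miR-222-3p were both 0.12. Without mouse 65, 62 miRNAs were at an unadjusted p under 0.05, against 12 in all mice. The log2 fold change of miR-221-3p ranged from -0.11 to 0.01 with a mouse left out, above 0 without mouse 65 (0.012) and without mouse 66 (0.014), and in the other 12 alternatives it kept its direction. miR-222-3p kept its direction in 14 of 14, with 0.06 to 0.17 when a mouse was left out, the lowest without mouse 64. Between mice, the count of 8 went to 10 with a mean of at least 1 and with median-ratio scaling, to 9 with the GC trend removed, to 5 with no trend and to between 3 (without mouse 68) and 7 when a mouse was left out, with 5 without mouse 61 and 4 without mouse 64 or 66; a fit on 4 mice has fewer samples. miR-222-3p passed between mice in 3 of 13 alternatives, with adjusted p by limma of 0.0319, 0.0398 and 0.0280. The 3p to 5p difference of miR-222 ranged from -0.34 to 0.12 with a mouse left out, positive only without mouse 66, where the cause was not tested. The ratio of miR-222-3p to miR-221-3p, right minus left, ranged from 0.13 to 0.17, and that of the arms of miR-221 from 0.12 to 0.34.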

Other observations

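miR-221-5p varied with other miRNAs than the 3p arms did. By a search made after its values were seen, miR-365-3p had the highest r with it, 0.96 over the 10 libraries of 5 mice, followed by miR-542-5p with 0.82, and 2 of 478 miRNAs were at 0.8 or above. With the GC trend of the libraries removed, these values were 0.73 and 0.69. miR-3084-3p and miR-215-5p, with r of 0.79 and 0.78 before the removal, were then above both, at 0.83 and 0.79. miR-365-3p had a mean of 46.4 normalised reads and did not pass the test between mice (adjusted p by limma 0.742).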
